A study of Homo sapiens with 8 samples.

Results

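The zinc finger genes of human chromosome 19 were followed through the input RNA, the ribosome-protected fragments (RPF) and the translation efficiency (TE) of cells with and without METTL5. A gene was taken as a member when its name in the deposited TE table was ZNF followed only by digits and when the count table placed it on chromosome 19. The rule gave 127 of the 11244 genes of the TE table. It set aside 181 ZNF genes on other chromosomes and 639 other genes of chromosome 19, which served as comparisons. A further 114 chromosome 19 genes with such names were in the count table without a row in the TE table, which lists no gene at 0 reads in any of its libraries, and the members are therefore those detected throughout.

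The libraries were made to ask how loss of METTL5, the enzyme that places an N6-methyladenosine on 18S ribosomal RNA, changes translation. The cells were labelled HepG2, an established line from a human liver tumour, and were either wild type (WT) or METTL5 knockout (KO), the latter made with CRISPR/Cas9 and a pair of guides meant to delete internal exons of METTL5, for which the labels and the methods name different exons. Plates of both genotypes were treated with cycloheximide, which halts elongating ribosomes, at 100 µg/mL for 7 minutes. A portion of every lysate was saved as input, and micrococcal nuclease was used on the remainder to leave RPF, so that 8 libraries fell into 4 groups (WT input, KO input, WT RPF and KO RPF) with 2 replicates each. KO lines were grown from isolated single cells, and which clone gave each replicate was not stated, so that differences between clones cannot be told apart from genotype, and p-values measure only the spread between these samples.

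Zinc finger proteins of this family bind DNA through tandem C2H2 fingers, short modules in which a pair of cysteines and a pair of histidines hold a zinc ion. Many carry a KRAB domain at the amino end, which recruits the co-repressor TRIM28 and through it the histone methyltransferase SETDB1 and HP1 proteins, and many KRAB zinc finger proteins silence transposable elements. The genes arose by repeated tandem duplication, and chromosome 19 carries large clusters of them, so that neighbouring members can have nearly the same coding sequence.

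METTL5 itself was lower in the libraries labelled KO. Its input counts were 490 and 542 in WT and 208 and 151 in KO, and its RPF reads were 158 and 226 in WT and 41 and 21 in KO, so the groups did not overlap on either measure. The markers of the labelled cell type were almost absent. The 8 hepatocyte markers examined, among them albumin (ALB) and transthyretin (TTR), summed to between 4 and 12 counts in each input library, ALB was at 0 in 3 libraries and 1 in the fourth, and TTR and SERPINA1 were at 0 in all 4. The 4 fibroblast markers summed to between 596 and 1166 counts. COL1A1 had 429 to 937 counts, DCN 83 to 170, PDGFRB 52 to 83 and COL1A2 0 or 1. Endothelial markers summed to at most 14 counts and leukocyte markers to at most 2. Thus the labelled liver identity was not borne out by its defining transcripts in either genotype, and the libraries are called here by genotype only. Input libraries held 10710226 to 15307256 counts, and RPF libraries held 3970779 and 4592443 reads in WT against 8626705 and 9255921 in KO, so the WT footprints were the shallower ones.

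The members shared a repeated coding sequence and differed in base composition. Translated canonical transcripts held 1526 matches to the C2H2 finger pattern, a median of 12 per member, from 1 in ZNF428 to 31 in ZNF91, and a KRAB domain was found with a profile in 101 of the 127. Median GC content of the coding sequence was 43.9% against 52.3% over the TE table, and no member lay between 54.78% and 60.92%. This gap split the members into 107 AT-rich genes (36.21% to 54.78%), 99 of them with a KRAB match, and 20 GC-rich genes (60.92% to 74.97%), of which ZNF324 and ZNF446 alone had one. One finger is shown from a pair of AT-rich members and a pair of GC-rich members, to show how the same protein fold is spelled in either base composition. ZNF91, with the most fingers, represses SVA elements, ZNF675 had the lowest coding GC content, and ZNF579 and ZNF580 had the highest. Each is given 5′ to 3′ on the coding strand as read from GENCODE release 44 (hg38), with the codons of the zinc-binding cysteines and histidines in capitals.
ZNF91: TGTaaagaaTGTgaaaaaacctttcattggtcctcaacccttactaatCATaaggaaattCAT
ZNF675: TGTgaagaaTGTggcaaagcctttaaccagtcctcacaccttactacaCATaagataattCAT
ZNF579: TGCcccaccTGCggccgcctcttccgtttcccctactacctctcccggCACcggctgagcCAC
ZNF580: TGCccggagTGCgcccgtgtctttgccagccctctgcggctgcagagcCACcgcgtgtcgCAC

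These 63 bases lie at chr19:23362283-23362345 (minus strand), chr19:23654099-23654161 (minus strand), chr19:55579442-55579504 (minus strand) and chr19:55642788-55642850 (plus strand), all within coding exons. Their GC content was 31.7% in ZNF91 and 38.1% in ZNF675 but 69.8% in ZNF579 and 71.4% in ZNF580. The AT-rich fingers spelled the zinc-binding cysteine codons TGT and the zinc-binding histidine codons CAT, whereas the GC-rich fingers spelled them TGC and CAC.

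The members also repeated one another. The stretch of 30 bases found in the most members spans the linker between a pair of fingers. It is shown because reads lying wholly within it cannot be assigned to a single gene, whereas longer reads can extend past it. The codons for the residues TGEKP are in capitals.
Shared linker: tcacACTGGAGAGAAACCCtatgaatgtaa

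This stretch occurred in 11 members and in 27 annotated genes. Over all members, a median of 7.48% of 30-base windows of the coding sequence were also present in transcripts of another gene, against 0 for the TE table, and 31 members had at least 25% of their windows shared. ZNF284, ZNF564 and ZNF625 had 100% shared and ZNF8 98.5%, so their values are uncertain. Members also overlap on the same strand in 3 pairs, ZNF432 with ZNF841, ZNF580 with ZNF581 and ZNF324 with ZNF446, and the reads of each pair may be split between them.

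Members were low in abundance, and in these bulk libraries fewer cells with a transcript and less of it per cell cannot be told apart. Their median level in WT input was 12.2 normalized units per exonic kilobase, against 54.1 over the TE table and 19.7 for ZNF genes of other chromosomes, where a normalized value is the read count scaled by one constant for each library. The 4 highest members per exonic kilobase were ZNF146 (206), a protein made up almost only of fingers, ZNF460 (176), ZNF121 (124) and ZNF428 (87.3), and the lowest member had 0.310. Footprints were correspondingly sparse. The median member had 15 and 16 reads in the WT RPF libraries and 32 and 34 in KO, and 51 of 127 members (40.2%) had under 10 reads in at least one WT RPF library, against 11.5% of all genes.

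As a share of the reads in the TE table, all members together took 0.190% and 0.186% of WT input and 0.204% and 0.189% of KO input. They took 0.101% of each WT RPF library and 0.0941% and 0.0931% of the KO RPF libraries. Thus the group held a smaller share of footprints than of input in every lysate. The 107 AT-rich members accounted for this difference, with 0.168% and 0.164% of WT input against 0.0597% and 0.0614% of WT RPF. The 20 GC-rich members went the other way, with 0.0225% and 0.0228% of WT input against 0.0415% and 0.0395% of WT RPF. In KO their share was 0.0267% and 0.0292% of input and 0.0311% and 0.0331% of RPF, and on both measures the KO libraries lay outside the range of the WT libraries.

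**Figure D1:**
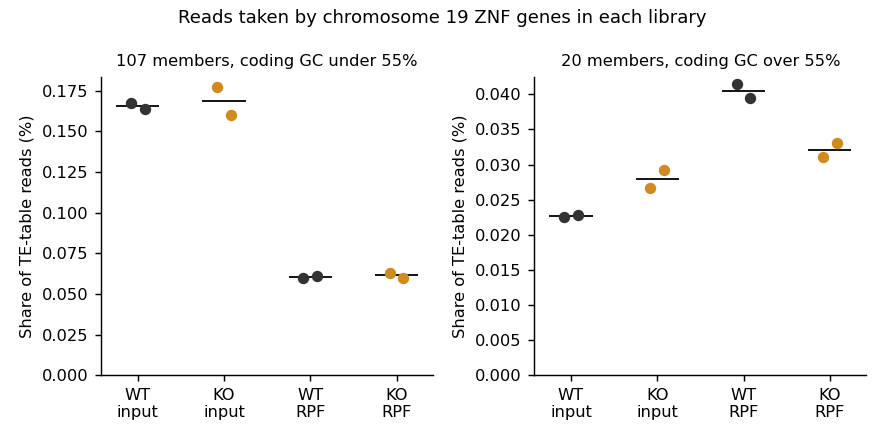
Share of each library's TE-table reads (%, vertical axis, from 0) taken by the 107 AT-rich members (left) and the 20 GC-rich members (right) in the 4 groups on the horizontal axis, with 1 point per library and a line at the mean of 2 replicates. AT-rich members took 0.160% to 0.178% of input and 0.0597% to 0.0630% of RPF, while GC-rich members took more of RPF than of input, by a smaller margin in KO.

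Baseline TE, the log2 ratio of RPF to input value in a WT lysate, was low for the group. The median member had a log2 TE of -0.85, with -0.80 in the first and -0.86 in the second WT lysate, against 0.01 over the TE table, -0.60 for ZNF genes of other chromosomes and 0.89 for the other genes of chromosome 19. The KO lysates, which are separate measurements, gave medians of -0.85 and -0.84. Of the 127 members, 95 (74.8%) had a mean below 0 in WT, against 49.6% of all genes, and 81 (63.8%) lay below the table median in each of the 4 lysates, against 37.0% of all genes. The low values were not limited to members with shared sequence or few reads: the median was -0.75 in the 54 members with under 5% of windows shared and -0.62 in the 74 with at least 10 reads in every library. Per coding and exonic kilobase, relative to the table median, it was -1.09, and with the canonical transcript length in place of the exonic length it was -0.82.

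Baseline TE differed between the AT-rich and the GC-rich members. AT-rich members had a median log2 TE of -1.04, and 92 of 107 were below 0, while GC-rich members had a median of 1.13, and 3 of 20 were below 0. Other genes in the coding GC range of the AT-rich members had a median of -0.34, so these members lay lower than genes of like composition, and the 114 ZNF genes elsewhere in that range had -0.90. Other genes in the range of the GC-rich members had 0.71. Across the 127 members, Spearman's rho of WT log2 TE with coding GC content was 0.37, near the 0.41 over 11224 genes of the TE table. Within the 107 AT-rich members it was 0.10. With the length of the 3′ untranslated region rho was -0.41 over members and -0.43 over all genes, and with the number of fingers -0.19 and -0.11. This ratio takes no account of length. With WT log2 TE per coding and exonic kilobase, rho over members was -0.08 with the length of the 3′ untranslated region and -0.38 with the number of fingers. The order of these features therefore depends on whether length is taken into account. These are descriptions across genes measured in the same 4 libraries, and genes are not independent replicates. Between the WT lysates themselves rho was 0.75 over members, against 0.88 over all genes, which bounds how far single values can be read.

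**Figure D2:**
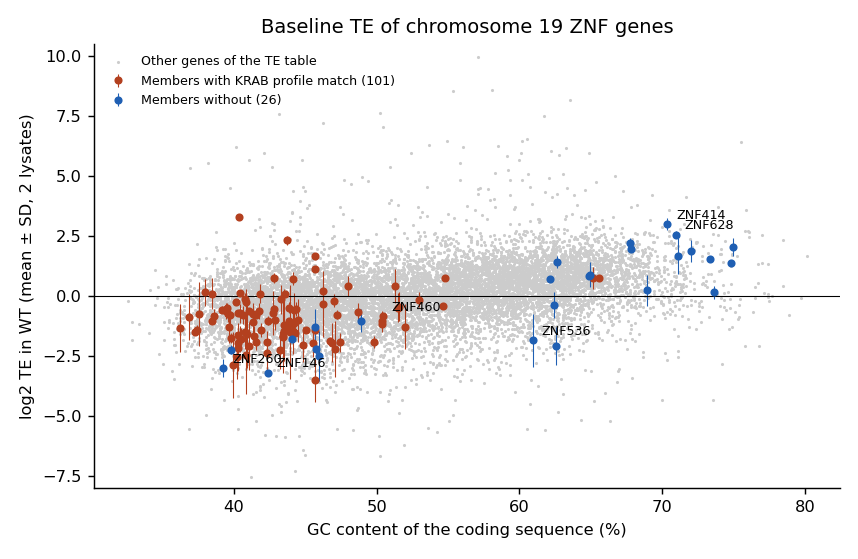
Baseline log2 TE in WT (vertical axis, mean ± SD of 2 lysates) against GC content of the coding sequence (%, horizontal axis) for members with (red) and without (blue) a KRAB profile match and for the other genes of the TE table (grey, mean only). The AT-rich members lie mostly below 0 and the 20 GC-rich members mostly above, with an empty stretch from 54.78% to 60.92%.

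For the extremes of baseline TE, only members with at least 10 reads in each WT RPF library were ranked. At the low end, a member can meet this rule only with abundant input RNA. ZNF146 had 1313 and 1146 input reads in WT but 39 and 45 RPF reads, a log2 TE of -3.21 ± 0.07 (SD, n = 2), and in KO 1324 and 1093 input reads with 58 and 48 RPF reads. ZNF260, which like ZNF146 has many fingers and no KRAB match, stood at -3.00 ± 0.39. ZNF426 and ZNF121 were at -2.27 ± 0.79 and -2.24 ± 0.20. ZNF146 and ZNF260 differed by less than the SD of ZNF260, as did ZNF426 and ZNF121 by less than either SD. ZNF587 was lower still by its mean (-3.51) but had 9 and 4 WT RPF reads and 78.1% shared windows. At the high end, the highest mean (3.30) was that of an AT-rich member with a KRAB match, left out by the same rule. ZNF414 stood highest among the ranked members, with a log2 TE of 2.99 ± 0.25. It had 37 and 28 input reads and 77 and 93 RPF reads in WT. ZNF628 (2.55 ± 0.14), ZNF296 (2.19 ± 0.24) and ZNF579 (2.04 ± 0.36) followed, of which the last pair differed by less than their SD. All 4 were GC-rich and without a KRAB match.

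Among members picked for their known roles, ZNF331, an imprinted gene, had a log2 TE of 0.22 ± 0.18 and ZNF274, which binds the ends of zinc finger genes themselves and recruits SETDB1, had -0.16 ± 0.32. ZNF180 was at -1.80 ± 0.47 and ZNF91 at -0.75 ± 1.35, the latter from 2 and 7 RPF reads. In the GC-rich cluster, ZNF580 was at 1.37 ± 0.01, ZNF444 at 0.15 ± 0.26 and ZNF581 at -0.38 ± 0.53.

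Input RNA was then compared between genotypes with edgeR's quasi-likelihood test on counts, Benjamini-Hochberg adjusted over all 14054 genes tested. The filter on low counts removed 3 members. Of the 124 tested, 8 rose and 2 fell in KO (adjusted p under 0.05), which is 8.06% of members against 22.4% of all genes. The median log2 fold change was 0.10 for members and -0.01 for the genes of the TE table. The median standard error was 0.23 for members and 0.14 for the table, so that a change of a given size was called less readily among members.

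ZNF787, a GC-rich gene without a KRAB match, had 359 and 340 counts in WT and 614 and 779 in KO. ZNF264 had 340 and 335 in WT and 622 and 645 in KO. After scaling for depth these were rises of 0.63 ± 0.14 (SE) and 0.56 ± 0.14 on the log2 scale (adjusted p = 0.0014 and 0.0056, edgeR), with KO libraries above WT libraries in both. KO input values lay wholly above WT values in 47 of 127 members and in 3591 of 11244 genes. ZNF675 had 133 and 114 counts in WT and 233 and 258 in KO, a log2 fold change of 0.64 ± 0.19 (adjusted p = 0.017, edgeR). ZNF530 had 40 and 49 against 108 and 127, and ZNF350, known as ZBRK1 for its work with BRCA1, had 37 and 42 against 72 and 121. Their log2 fold changes were 1.04 ± 0.27 and 0.91 ± 0.30 (adjusted p = 0.0072 and 0.030, edgeR).

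ZNF284 had the largest rise, from 11 and 10 counts to 47 and 46 (log2 fold change 1.80 ± 0.46, adjusted p = 0.0059, edgeR), but each window of its coding sequence was shared with another annotated gene. ZNF536, a repressor of neuronal differentiation, fell from 38 and 60 counts to 26 and 26 (-1.27 ± 0.38, adjusted p = 0.019, edgeR). The other calls, named here after their values were seen, were ZNF557 and ZNF428, which rose, and ZNF433, which went from 12 and 15 counts to 1 and 1 in KO. For ZNF433 the ratio of KO to WT was 0.058 with an exact 95% counting interval of 0.0067 to 0.231, which covers counting error only. With DESeq2 3 members were called (ZNF264, ZNF284 and ZNF787), beside 2183 genes in all. The 31372 genes fitted there include genes left without an adjusted p, so the share of genes tested is not given. The number of members called was 16 with the genes of the TE table only (3077 of 11244 genes) and 20 with the GC trend removed (3748 of 11606 genes). The median input change of members was 0.13 and 0.041 without the first and second WT library, and 0.064 without the first KO library.

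Footprints were compared with limma on log2(value + 1) over the 4 RPF libraries. Of 127 members, 3 rose and 1 fell, which is 3.15% against 24.4% of the 11240 genes tested. The median log2 fold change was 0.04 for members and 0.02 over all genes, with median standard errors of 0.47 and 0.19, and the median of members turned to -0.019 with the GC trend removed and to -0.050 without the second WT library. ZNF460 rose from 173 and 184 RPF reads in WT to 571 and 523 in KO, or from normalized values of 411 and 369 to 689 and 583 (0.70 ± 0.15, adjusted p = 0.0024, limma). ZNF181 rose from 14 and 19 reads to 88 and 58 (1.20 ± 0.39, adjusted p = 0.035, limma), with 52.8% of its windows shared. ZNF112 had 4 and 1 reads in WT and 27 and 17 in KO (2.20 ± 0.74, adjusted p = 0.041, limma). ZNF358, GC-rich and without a KRAB match, had normalized RPF values of 546 and 473 in WT and 341 and 372 in KO, a log2 fold change of -0.51 ± 0.15 (adjusted p = 0.022, limma). In each of these genes the KO libraries lay wholly on one side of the WT libraries, which the rule for naming genes required. KO values lay wholly above WT values in 29 of 127 members and wholly below in 25. Over the 11244 genes these numbers were 3641 and 3258.

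None of the 4 genes called in RPF was called in input in the main fit. ZNF358 was called higher in input when only the genes of the TE table were fitted. With edgeR on recovered whole reads 5 members were called, ZNF865 being added, against 27.2% of the 10637 genes tested. With the GC trend removed ZNF460 stayed called, while ZNF112, ZNF181 and ZNF358 did not (adjusted p = 0.059, 0.063 and 0.11, limma). Without the first and second KO RPF library 0 (5 at an unadjusted p under 0.05, limma) and 1 of the members were called, beside 1467 and 1498 of 11240 genes, and without the first and second WT library 7 and 13, beside 3211 and 3087.

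TE was compared as the interaction of genotype and library type over all 8 libraries. ZNF460 rose and ZNF358 fell, 2 of 127 members or 1.57% against 4.79% of the 11240 genes tested. ZNF460 had a log2 TE of -0.80 and -0.91 in WT and of -0.07 and -0.01 in KO, a difference of 0.82 ± 0.19 (adjusted p = 0.025, limma). Its input was 718 and 696 in WT and 725 and 585 in KO as normalized values, so the groups overlapped in input and not in RPF. ZNF358 had a log2 TE of 1.85 and 2.02 in WT and of 1.02 and 0.89 in KO, a difference of -0.98 ± 0.25 (adjusted p = 0.036, limma). Its input counts of 221 and 163 in WT and 278 and 399 in KO did not pass the test (0.45 ± 0.18, adjusted p = 0.066, edgeR).

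ZNF865, the next member by unadjusted p, had a log2 TE of 2.19 and 1.55 in WT and of 0.63 and 0.94 in KO (-1.09 ± 0.34, adjusted p = 0.074, limma). With edgeR on whole reads it was the third member called (adjusted p = 0.034), against 6.95% of the 11130 genes tested. ZNF112, with its few WT footprints, had the largest TE difference of the members (2.42 ± 0.80, adjusted p = 0.087, limma), and with the lysate as a block it was called (adjusted p = 0.048, limma). With the GC trend removed, ZNF460 remained called (0.75 ± 0.17, adjusted p = 0.033, limma) and ZNF358 did not (-0.60 ± 0.22, adjusted p = 0.17, limma). Over all genes, 298 of 11220 were called with that trend removed. Without any one lysate neither passed the threshold, at adjusted p values of 0.063 to 0.15 for ZNF460 and 0.062 to 0.25 for ZNF358 (limma).

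**Figure D3:**
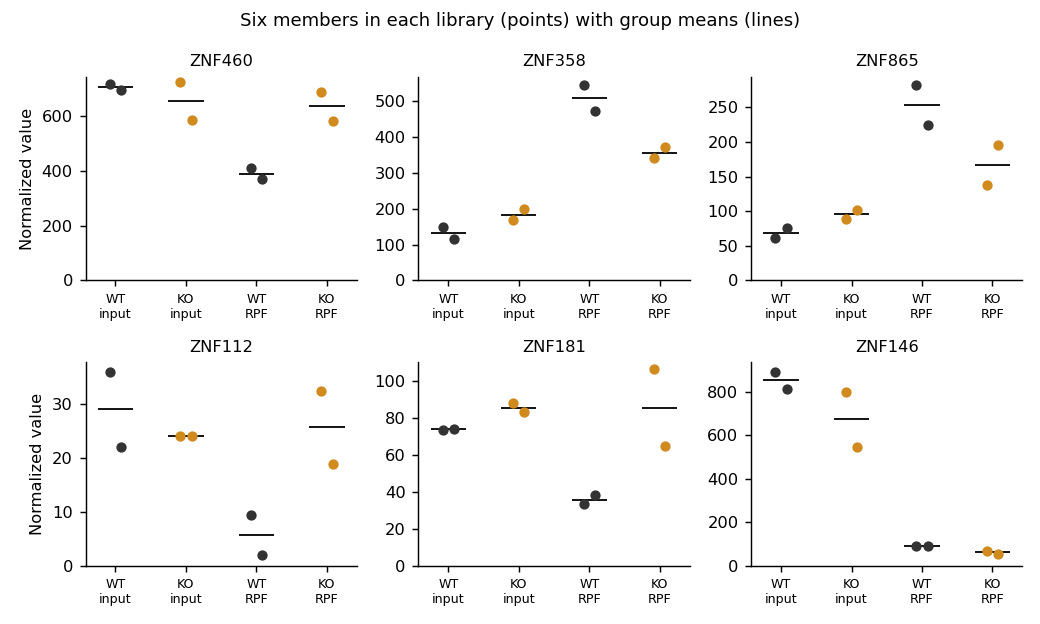
Normalized values (vertical axes, from 0, in the deposited units) of 6 members in WT (black) and KO (orange) input and RPF libraries, with 1 point per library and a line at each mean of 2. ZNF460 and ZNF181 stand higher in KO RPF with little difference in input, ZNF358 and ZNF865 stand lower in KO RPF and higher in input, and ZNF146 has RPF values far below its input in both genotypes.

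**Figure D4:**
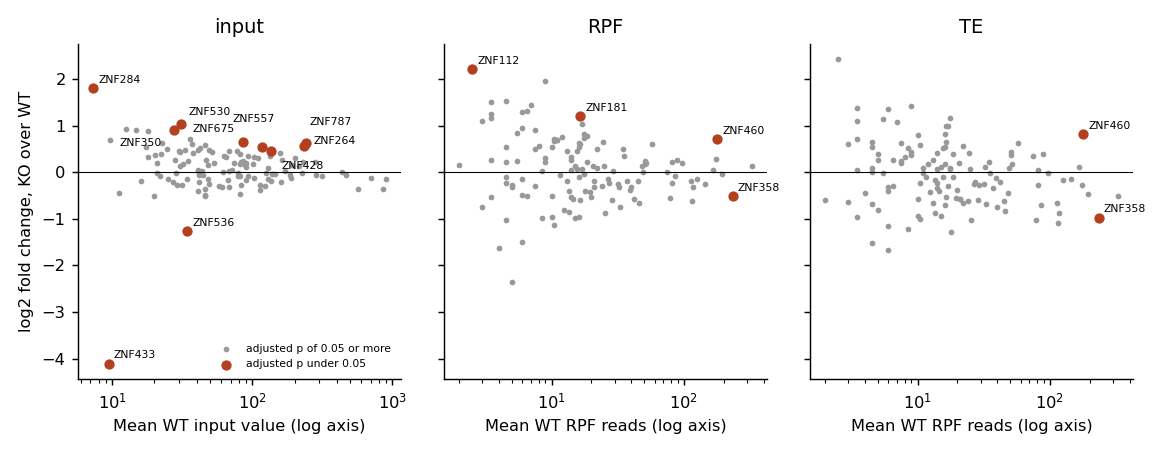
Log2 fold change of KO over WT (vertical axis) of each member in input (124 tested), RPF and TE (127 each), against its mean WT input value or mean WT RPF reads (horizontal log axes), with members at adjusted p under 0.05 in red. The spread of RPF and TE changes widens toward low read numbers, where ZNF112 lies.

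None of the 8 members picked for their known roles passed the TE test. Their TE log2 fold changes were -0.84 ± 0.36 for ZNF444 (adjusted p = 0.17, limma), -0.68 ± 0.83 for ZNF91, -0.28 ± 0.34 for ZNF580, -0.21 ± 0.28 for ZNF146 and -0.13 ± 0.38 for ZNF581. They were 0.27 ± 0.44 for ZNF180, 0.11 ± 0.21 for ZNF331 and 0.05 ± 0.28 for ZNF274. Apart from ZNF444, each value was smaller than its standard error.

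Over the group, the TE change had a median of -0.10, against 0.02 over all genes, and 69 of 127 members (54.3%) were below 0, against 48.2%. The 181 ZNF genes of other chromosomes were near the members, with a median of -0.08 and 55.2% below 0. The GC-rich members lay lower, with a median of -0.64 and 17 of 20 below 0, where the other genes of that GC range had -0.32 and 78.5% below 0. Their input change had a median of 0.42 and their RPF change one of -0.21. The 114 ZNF genes elsewhere in the coding GC range of the AT-rich members had a median TE change of 0.01 with 50.0% below 0. The AT-rich members had a median TE change of 0.05 with 52 of 107 below 0 (48.6%), where the other genes of that range had 0.19 and 31.6% below 0. The medians of the AT-rich members' log2 TE by lysate moved the other way, from -1.06 and -1.05 in WT to -1.16 and -1.07 in KO, so the direction for these members depends on how the median is taken.

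Across all genes the TE change fell with coding GC content (Spearman's rho of -0.47 over 11220 genes), and it did so over members (-0.37, n = 127). In each of the 7 GC bins that held members, the median TE change of members was below that of the other genes. In the most populated bin, from 40% to 45%, it was 0.08 in 57 members and 0.28 in 2043 other genes, and above 70% it was -0.78 in 8 members and -0.35 in 191 others. Removing the trend on GC content from each library moved the median of the members from -0.10 to -0.20 and left that of all genes at 0.02. ZNF genes of other chromosomes then had a median of -0.10. The members' median was -0.049 without the first KO lysate, -0.15 without the second WT lysate and -0.022 over the members with a mean value of at least 10. The part that depth and base composition of single libraries have in these medians was not tested further.

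**Figure D5:**
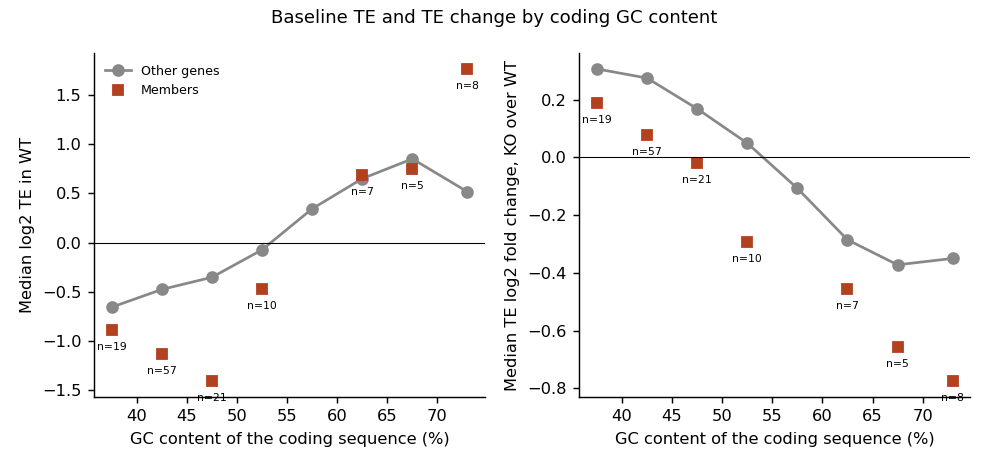
Median log2 TE in WT (left) and median TE log2 fold change of KO over WT (right) by coding GC content (%, horizontal axes, bins of 5 percentage points, the last from 70% to 76%) for members (red squares, number of members beside each) and other genes (grey). Members lie below the other genes in 5 of 7 bins on the left and in 7 of 7 on the right.

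Along the chromosome the members formed 18 groups, a new one being started where neighbouring gene starts were over 1 Mb apart, and 7 of them held at least 5 members. Among these 7, only the 9 members from ZNF628 to ZNF444 (chr19:55476617-56160893) were all GC-rich without a KRAB match. Their median WT log2 TE was 1.55. The input change was above 0 in 7 of 9 (median 0.42) and the TE change below 0 in 8 of 9 (median -0.63). These values were near those of all 20 GC-rich members, with medians of 1.13, 0.42 and -0.64, and 15 of 20 and 17 of 20 on the same sides. Over all genes 51.3% of input changes and 48.2% of TE changes were below 0. Among other genes of that GC range these shares were 30.7% and 78.5%. In the other 6 of the 7 groups, medians of WT log2 TE were negative. They ran from -1.79 in the 12 members from ZNF557 to ZNF562 to -0.50 in the 13 from ZNF653 to ZNF791. The 17 members from ZNF576 to ZNF296 had an input change above 0 in 13 of 17 (median 0.26), while the 26 from ZNF264 to ZNF446 were evenly divided, 12 above and 13 below. TE changes of these groups had medians between -0.23 and 0.14. In the 3 members from ZNF431 to ZNF738, input changes were all below 0 (median -0.45), and none was called.

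The co-repressor genes through which KRAB zinc finger proteins act were present, all 21 of the list. TRIM28 itself did not pass any of the tests (input 0.04 ± 0.11, adjusted p = 0.86, edgeR, TE -0.17 ± 0.13, adjusted p = 0.48, limma), nor did SETDB1. In input 7 fell and none rose: ATRX, TRIM24, TRIM33, SMARCAD1, ATF7IP and the HUSH complex members TASOR and MPHOSPH8. MPHOSPH8 also fell in RPF (-0.97 ± 0.28, adjusted p = 0.018, limma), whereas the HP1 genes CBX1 and CBX3 rose there (0.46 ± 0.15 and 0.50 ± 0.17, adjusted p = 0.037 and 0.039, limma). CBX3 was the only one called in TE (0.81 ± 0.23, adjusted p = 0.048, limma). With the GC trend removed CBX3 was called neither in TE (0.52 ± 0.20, adjusted p = 0.17, limma) nor in RPF (adjusted p = 0.12, limma), and CBX1 was not called in RPF (adjusted p = 0.094, limma). RPF falls of TRIM24 (-0.43 ± 0.12, adjusted p = 0.014, limma) and TASOR (-0.37 ± 0.10, adjusted p = 0.017, limma) were then called. That of MPHOSPH8 stayed called (adjusted p = 0.0083, limma). With DESeq2 the falls of SMARCAD1 and ATF7IP in input did not pass (adjusted p = 0.11 and 0.077). Falls of CBX5 and CBX3 in input did pass there (adjusted p = 0.033 and 0.044, DESeq2). With the GC trend removed the input fall of SMARCAD1 did not pass (adjusted p = 0.053, edgeR). Input falls of CBX5 and UHRF1 then did (adjusted p = 0.048 and 0.0096, edgeR). Before these alternatives, the share called was 33.3% in input, 14.3% in RPF and 4.76% in TE, beside the backgrounds of all genes given above.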

How the data were processed

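Groups came from the sample titles, and the members and gene lists were chosen with earlier results of these data known. For input, the authors deposited raw counts per gene (STAR 2.7.3a on hg38, featureCounts 1.6.0 per the submitters' processing notes). The TE table, which the authors name RPKM, holds normalized signal values; all deposited values were whole reads times one constant per library (100% whole at a tolerance of 0.01), and every gene had at least 1 read in each library. RPF reads were processed by the authors on the RiboToolkit server. Deposited fold changes on a log2 scale and p-values of the authors' own comparison were not used.

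Input was tested with edgeR 4.0.16 (filterByExpr, TMM) and RPF and TE with limma 3.58.1 (trended variance, log2(value + 1), mean of at least 1) in R 4.3.3, and DESeq2 1.42.0 was an alternative. Fold changes on the log2(value + 1) scale understate the change of low genes. Adjusted p-values are Benjamini-Hochberg over all genes, called under 0.05, and scripts were tested on simulated data. Coding sequences came from GENCODE release 44 and were found for 99.8% of TE-table genes. KRAB domains were found with a pyhmmer 0.12.3 profile built from 128 KRAB-like segments of 30 residues in translated TE-table genes (E value of at most 0.001). The GC trend was removed from each library by local regression (span 0.3). Named genes were the called members with the largest changes (mean value of at least 10, groups not overlapping) and the 3 smallest p-values where fewer than 3 were called. Added to these were the 4 highest and 4 lowest by baseline TE among members with at least 10 reads in each WT RPF library. The 4 highest by level and 8 members of a list of known roles completed them. Input was counted by strand, and 3 broken lines of the count table were dropped.

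Input and RPF of a lysate are paired by the protocol (correlation of deviations -0.016 in WT and 0.053 in KO over 11240 genes).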

Additional observations from a re-analysis of the deposited data

Results flagged for a closer look

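In the count table, 114 ZNF genes of chromosome 19 had no row in the TE table, and 23 of them could be tested in input. A pair of them were called higher in KO than in WT at an adjusted p under 0.05 (edgeR). ZNF528 had 1 and 4 counts in WT and 21 and 28 in KO (log2 fold change 2.93 ± 0.72 SE, adjusted p = 0.0047, edgeR). ZNF772 had 36 and 36 counts in WT and 77 and 100 in KO (0.94 ± 0.30, adjusted p = 0.026, edgeR). Their footprints were not analysed here, so no TE can be given.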

How the results depend on the processing

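Low read numbers limited RPF and TE, with 40.2% of members under 10 reads in a WT RPF library. Members called in input numbered 10, against 3 with DESeq2, 16 with the genes of the TE table only, 20 with the GC trend removed and 2 to 21 without one library. In RPF 4 were called, against 2 with DESeq2 on whole reads, 2 without the variance trend (ZNF284 and ZNF615, neither among the 4, beside 303 of 11240 genes), 2 after GC correction (ZNF460 and, newly, ZNF787), 16 in one model of 8 libraries and 0 to 13 without one library. In TE 2 were called, against 0 without the variance trend (19 at an unadjusted p under 0.05, limma, with 1 of 11240 genes called in all), 1 after GC correction, in limma with and without the lysate block and in edgeR, and 0 to 3 without one lysate. Neither KO lysate could be left out with a TE call kept in limma, where 9 and 12 members had an unadjusted p under 0.05 without the first and the second and the calls over all genes dropped to 182 and 4 of 11240. The cause was not tested.

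The median input change was 0.10, with 0.14 by DESeq2, 0.16 without a filter, 0.15 with the genes of the TE table only and 0.041 to 0.13 without one library. The median RPF change was 0.04 and reversed to -0.019 once the GC trend was removed, and ranged from -0.050 to 0.11 without one library. The median TE change was -0.10, with -0.048 at a pseudocount of 5, -0.022 at a minimum mean of 10, -0.20 after GC correction, -0.20 when a replicate block on the lysate was added to it, -0.17 in edgeR after GC correction, and -0.15 to -0.049 without one lysate. The median WT log2 TE was -0.85, with -0.77 at a pseudocount of 5, -1.09 per coding and exonic kilobase, -0.75 in members with under 5% of windows shared, -0.62 in those with at least 10 reads in every library, and -0.86 to -0.80 without one WT lysate. These 2 member subsets, the canonical length, the length trend and the edgeR fit with the GC trend removed were chosen after seeing the data.

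A replicate block on the number, which only names the samples across genotypes (correlation 0.039 in input and -0.0021 in RPF), gave 15 members in input, 7 in RPF and 2 in TE. Over all genes it called 3554 of 14054 in input, 3141 of 11240 in RPF and 588 of 11240 in TE. Some uncalled TE changes near 0 changed sign. With the GC trend removed, with and without the replicate block on the lysate, ZNF180 was at -0.016, ZNF331 at -0.059, ZNF580 at 0.13 and ZNF581 at 0.19, and in edgeR with that trend removed ZNF331 was at -0.066, ZNF580 at 0.15 and ZNF581 at 0.20. ZNF180 was at -0.0067 with KO RPF thinned to WT depth. Without one lysate the ranges were -1.63 to 0.28 for ZNF91, -0.064 to 0.60 for ZNF180, -0.020 to 0.24 for ZNF331, -0.50 to 0.25 for ZNF581 and -0.17 to 0.28 for ZNF274.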

Other observations

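Of the 114 chromosome 19 ZNF genes outside the TE table, 41 had 0 counts in all 4 input libraries and 14 had at least 10 in each. ZNF229 fell from 13 and 14 counts in WT to 0 and 0 in KO (adjusted p = 0.00049, edgeR), which is at least 11.5-fold lower against a floor of 3 counts over the KO group. With ZNF528 and ZNF772, 3 of the 23 tested (13.0%) were called, against 22.4% of all genes tested.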
